A study of Mus musculus with 3 samples.

Results

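The BMP ligands Bmp2, Bmp4 and Bmp7, the Id genes Id1, Id2, Id3 and Id4 and the inhibitory Smad genes Smad6 and Smad7 were examined in mouse ES cells with reduced NUP153, a nucleoporin of the nuclear basket. These 9 genes were chosen by symbol as BMP ligands and genes that BMP signals act on directly, and all 9 were found among the 24421 genes of the deposited counts. RNA-Seq was carried out on 3 libraries, 1 per condition. All cells were of the female line EL16.7 (strain background F2:129S1/CastEiJx 129S1), kept undifferentiated with LIF and 20% FBS on γ-irradiated mouse embryonic fibroblasts from Tg(DR4)1Jae/J mice. The control library came from cells given a scramble shRNA by lentivirus, and the KD-1 and KD-2 libraries from cells given either of 2 shRNAs against Nup153. Every culture, the control included, was selected for 2 days with 2 μg/ml puromycin. The cells of a condition are a transduced pool of 1 line, and total RNA was taken from the dish without a step that separates ES cells from fibroblasts being named. With 1 library for each condition there is no spread between replicates to measure against, and the differences given here compare libraries.

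BMPs are secreted proteins of the TGF-β superfamily that bring type I and type II receptor kinases together. The active receptors phosphorylate SMAD1, SMAD5 and SMAD9, which enter the nucleus with SMAD4 and bind GC-rich and GTCT-containing DNA elements. Id genes are the classical direct targets, and the Id proteins hold E proteins away from DNA because they have a helix-loop-helix but no basic DNA-binding region. SMAD6 and SMAD7 are induced by the signal as well and feed back on it, SMAD6 mainly on the BMP branch and SMAD7 on both the BMP and the TGF-β branch. In mouse ES cells, BMP in serum acts together with LIF in self-renewal, and induction of Id genes is part of that activity.

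Reads on genes numbered between 69839336 and 85258834 per library. Nup153 had 27870 reads in control, 16451 under KD-1 and 11126 under KD-2, and after scaling it stood at 0.504 of control in KD-1 and 0.371 of control in KD-2. All 10 ES cell markers had reads in every library, with a summed level of 4896 CPM (counts per 1000000 upper-quartile scaled reads) in control, 5387 under KD-1 and 3637 under KD-2. Markers of embryonic fibroblasts were also present, since none of 14 was at 0 reads in any library, and their summed level was 1437 CPM in control, 697 under KD-1 and 2835 under KD-2. Relative to control, all 14 were below 1-fold in KD-1 (log2 fold from -2.01 to -0.15) and all 14 were above it in KD-2 (0.37 to 1.87). In such bulk RNA, a change in the number of cells of a type and a change in RNA per cell cannot be told apart. Of 6 primitive endoderm markers, 5 averaged at least 10 reads, with a median log2 fold of 0.22 under KD-1 and 0.63 under KD-2. Sox17 was past 1.5-fold and higher in KD-1, on 15 reads in control and with a counting interval that includes 1. Gata6, Dab2 and Pdgfra were past it and higher in KD-2, and Pdgfra was at 0.831-fold in KD-1. Gata4, on 22 reads in control, was at 0.78-fold in KD-1 and 0.847-fold in KD-2, with counting intervals that include 1. Of 4 early mesoderm markers 3 could be compared, with Eomes past 1.5-fold and higher in KD-1. Eomes and T were in KD-2, T with a counting interval that includes 1. Mixl1, on 26 reads in control, was at 0.953-fold in KD-1 and 0.719-fold in KD-2, with counting intervals that include 1. Of 5 trophoblast markers 4 could be compared, with Cdx2 and Eomes, which is in both lists, higher in each knockdown. Cdx2, on 6 reads in control, averaged at least 10 only through the knockdowns. Tfap2c, the most abundant trophoblast marker, was at 0.778-fold in KD-1 and 0.742-fold in KD-2, and the summed level of the list was 43.3 CPM in control, 36.7 under KD-1 and 35.9 under KD-2.

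Sequences around the start site were taken from the RefSeq promoter table (GRCm38.p6) for 5 of the 9 genes, Bmp4, Id2, Id3, Id4 and Smad6. Entries for Bmp2, Bmp7, Id1 and Smad7 were not used here. Each window runs from 250 bases before the RefSeq start site to 50 bases after it, on the strand of the gene. That start is also the start of the gene in GENCODE M21 for Bmp4 and Smad6, lies before the GENCODE start for Id4, and lies inside the GENCODE gene for Id2 and Id3. The windows of Smad6, Bmp4 and Id4 are shown because they do not begin inside the GENCODE gene. Capitals mark matches, on either strand, to GTCTAGAC (the palindromic SMAD-binding sequence), GGCGCC (the GC-rich SMAD1 and SMAD5 sequence) and GTCTG (a short SMAD site). None of these overlapped another in the windows shown.
Smad6, chr9:64022010-64022309, minus strand: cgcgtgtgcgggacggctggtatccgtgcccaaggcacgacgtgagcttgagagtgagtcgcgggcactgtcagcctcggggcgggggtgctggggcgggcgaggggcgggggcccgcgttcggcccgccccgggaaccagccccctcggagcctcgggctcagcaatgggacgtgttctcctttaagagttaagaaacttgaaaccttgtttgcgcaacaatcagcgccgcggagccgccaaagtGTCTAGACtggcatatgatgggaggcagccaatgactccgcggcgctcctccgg
Bmp4, chr14:46390620-46390919, minus strand: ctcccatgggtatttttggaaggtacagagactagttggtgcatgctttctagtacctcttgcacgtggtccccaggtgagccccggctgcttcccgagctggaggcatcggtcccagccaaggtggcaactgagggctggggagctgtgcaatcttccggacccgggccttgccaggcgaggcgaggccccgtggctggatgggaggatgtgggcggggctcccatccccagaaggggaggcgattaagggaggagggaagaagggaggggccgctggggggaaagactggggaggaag
Id4, chr13:48260866-48261165, plus strand: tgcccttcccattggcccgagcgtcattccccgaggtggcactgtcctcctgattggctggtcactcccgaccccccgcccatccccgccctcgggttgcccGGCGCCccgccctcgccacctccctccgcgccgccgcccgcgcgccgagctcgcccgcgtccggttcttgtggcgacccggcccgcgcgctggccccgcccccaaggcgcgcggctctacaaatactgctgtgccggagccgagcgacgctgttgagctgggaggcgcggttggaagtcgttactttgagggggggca

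The Smad6 window holds GTCTAGAC once, from base -4 relative to the start site, a sequence found in 0.213% of 32817 mouse promoter windows of the same length. The Id3 window holds GTCTG at bases -167 and -68, and 49.6% of all windows hold at least 1 such short site. GGCGCC, found in 11.9% of all windows, occurs once in Id4 at base -148 and once in the window of Id2 at base -231. The Bmp4 window holds none of them. A match describes the letters in the window and not a bound site, and with 5 windows no relation between these letters and the folds was tested.

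The levels of the 9 genes in control cells were compared per kilobase of exon, as RPKM from the reads on all genes. Id3 was at 48.3 RPKM and Id1 at 36.4 RPKM, above 93.2% and 91.0% of genes averaging at least 10 reads. Bmp4 followed at 11.9 RPKM and Smad7 at 10.5 RPKM, then Id2 at 5.53 RPKM, Id4 at 2.45 RPKM and Smad6 at 1.98 RPKM. Bmp2 at 0.677 RPKM and Bmp7 at 0.193 RPKM were the lowest, so that Bmp4 was the most abundant of the 3 ligands in this culture. In this order the counting interval of each gene lay apart from that of its neighbour. In KD-1, Smad7 at 14.1 RPKM stood above Bmp4 at 10.5 RPKM, and the order was otherwise that of control. In KD-2, Smad7 at 18.97 RPKM also stood above Bmp4 at 11.7 RPKM. Id3 at 101 RPKM and Id1 at 98.7 RPKM could not be told apart there by their counting intervals, and Smad6 at 7.05 RPKM stood above Id4 at 2.77 RPKM.

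**Figure D1:**
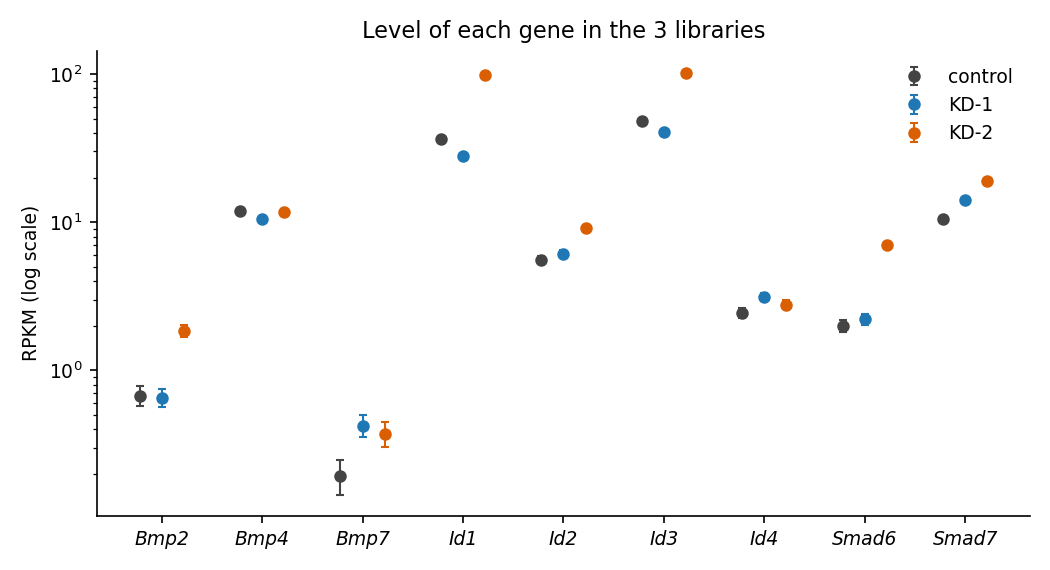
Level of each of the 9 genes in RPKM (log axis) in the control, KD-1 and KD-2 libraries, with 1 library per point and bars for the exact 95% Poisson interval of the reads. Bmp2, Id1, Id3 and Smad6 stand higher in KD-2 than in the other libraries, while Bmp7 is higher in both knockdowns than in control.

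Folds were computed from reads scaled by the upper quartile of each library, and a gene was counted as past the fold when it differed by more than 1.5-fold, the fold in the study's methods. The intervals given with folds are exact Clopper-Pearson 95% intervals on the reads of both libraries and cover counting error only. In KD-1 compared to control, 1 of the 9 genes (Bmp7) was past the fold and higher, against 8.63% of all 16670 genes compared, and none was lower, against 5.62%. In KD-2, 6 of the 9 genes were past the fold and higher (Bmp2, Bmp7, Id1, Id3, Smad6 and Smad7), against 17.1% of all genes, and none was lower, against 10.2%. The median log2 fold of the 9 genes was 0.15 under KD-1 and 0.78 under KD-2, while the median over all genes was 0.02 under KD-1 and -0.02 under KD-2. Both comparisons use the same control library. The 9 genes were chosen with earlier results of these data known, so the shares of all genes are given for scale and do not test the set.

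Among the ligands, Bmp2 had 174 reads in control, 197 under KD-1 and 461 under KD-2, or 2.49, 2.41 and 6.12 CPM. Bmp2, a ligand with roles in early mesoderm and bone (chromosome 2 from 133552159 to 133562885, GRCm38), thus stood alike in control and KD-1 within counting error and higher in KD-2. Its fold was 0.966 in KD-1 (interval 0.784 to 1.19) and 2.46 in KD-2 (interval 2.06 to 2.95). Bmp4, a ligand used to maintain mouse ES cells (chromosome 14 from 46383520 to 46390669), had 1933 reads in control, 2007 under KD-1 and 1837 under KD-2. After scaling it was slightly lower than control in both knockdowns, at 0.886-fold in KD-1 (interval 0.832 to 0.944) and 0.882-fold in KD-2 (interval 0.827 to 0.941), and neither was past the fold. With library totals in place of the upper quartile the log2 fold of Bmp4 in KD-2 was -0.02. Exons of Bmp4 share 89 bases with Gm15217 on the opposite strand, which had 3 to 4 reads per library.

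Bmp7, a ligand that acts in kidney and eye development (chromosome 2 from 172868012 to 172940321), had 56 reads in control, 145 under KD-1 and 104 under KD-2, and both knockdown libraries lay above control. Its fold was 2.20 in KD-1 (interval 1.61 to 3.07) and 1.72 in KD-2 (interval 1.23 to 2.43), and the lower bound of the latter is under 1.5. Bmp7 was the 1 gene of the 9 past the fold in both knockdowns, and also the one with the fewest reads. KD-1 and KD-2 differed by a fold of 1.28 for Bmp7 (interval 0.989 to 1.67), which was not detectable at this depth.

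Among the Id genes, Id1 (chromosome 2 from 152736251 to 152737410) had 3052 reads in control, 2757 under KD-1 and 7995 under KD-2, or 43.7, 33.7 and 106 CPM. KD-2 was thus the highest and KD-1 the lowest of the libraries. Id1 was at 0.771-fold of control in KD-1 (interval 0.732 to 0.812) and at 2.43-fold in KD-2 (interval 2.33 to 2.54). Id3, which overlaps Id1 in function in the embryo (chromosome 4 from 136143497 to 136145755), had 6262 reads in control, 6230 under KD-1 and 12679 under KD-2. It followed the same order of libraries, with a fold of 0.849 in KD-1 (interval 0.820 to 0.880) and 1.88 in KD-2 (interval 1.82 to 1.94).

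Id2 (chromosome 12 from 25093799 to 25097140) had 976 reads in control, 1267 under KD-1 and 1547 under KD-2, so that both knockdown libraries lay above control. Its fold was 1.11 in KD-1 (interval 1.02 to 1.21) and 1.47 in KD-2 (interval 1.36 to 1.60), just under the fold of 1.5. Id2 passed it in KD-2 with library totals, TMM, the size factors of DESeq2 and a filter on genes under a mean of 10 reads, with log2 folds up to 0.72. This makes 7 of the 9 genes, against 18.5% to 23.6% of all genes that were past the fold and higher under these settings. With library totals 23.6% of all genes were higher and 4.92% lower, in place of 17.1% and 10.2%. Id4, an Id protein known from neural and germline progenitors (chromosome 13 from 48261228 to 48266026), had 682 reads in control, 1026 under KD-1 and 745 under KD-2. It was highest in KD-1, at 1.28-fold of control (interval 1.16 to 1.42), and at 1.01-fold in KD-2 (interval 0.913 to 1.13). Exons of Id4 share 82 bases with A330033J07Rik on the opposite strand, which had 11 to 16 reads per library. The 4 Id genes thus differed among themselves, with Id1 and Id3 past the fold in KD-2 and not in KD-1, and Id4 within 1.5-fold in both knockdowns.

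Among the inhibitory Smad genes, Smad6 (chromosome 9 from 63953076 to 64022059) had 460 reads in control, 604 under KD-1 and 1577 under KD-2, or 6.58, 7.38 and 20.95 CPM. Control and KD-1 lay close together, with a fold of 1.12 (interval 0.991 to 1.27), and KD-2 was 3.18-fold above control (interval 2.87 to 3.54). This was the largest fold among the 9 genes in either knockdown, and 99.2% of all genes had a lower log2 fold in KD-2. Smad7 (chromosome 18 from 75367529 to 75395935) had 3425 reads in control, 5435 under KD-1 and 5990 under KD-2, and both knockdown libraries lay above control. Its fold was 1.35 in KD-1 (interval 1.30 to 1.41) and 1.62 in KD-2 (interval 1.56 to 1.69). Smad7 and Bmp7 were the genes with the most similar folds in KD-1 and KD-2 among those past the fold in KD-2.

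**Figure D2:**
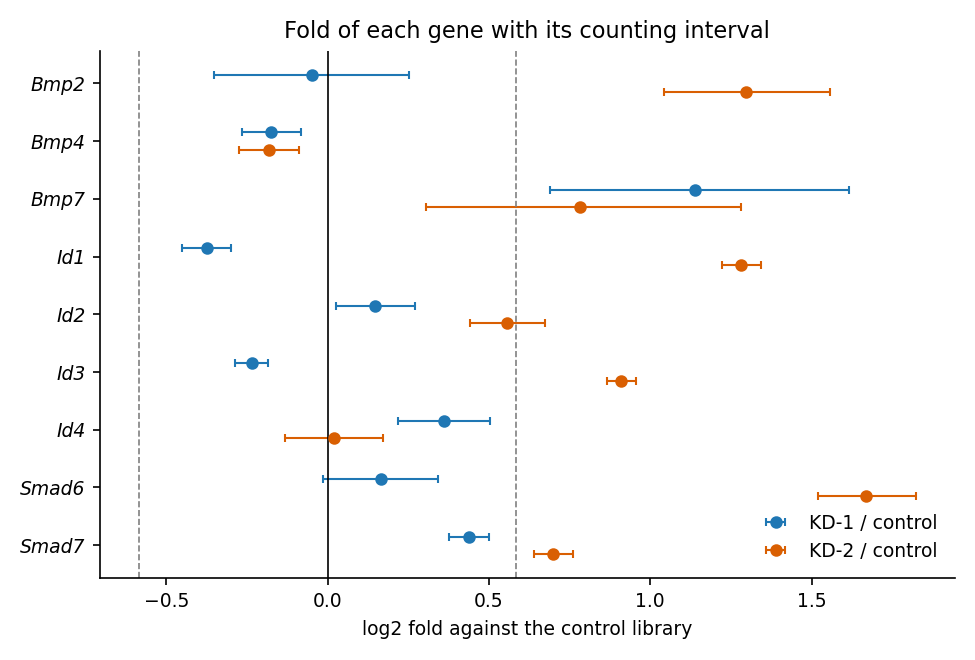
Log2 fold of each gene in KD-1 and KD-2 against the control library, with exact 95% counting intervals and dashed lines at 1.5-fold. Smad6, Bmp2, Id1 and Id3 lie far to the right in KD-2 and near or below 0 in KD-1, whereas Bmp7 and Smad7 lie above 0 in both.

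Fibroblast markers moved with part of these genes. In KD-2, where Bmp2, Id1, Id3 and Smad6 were higher, 13 of the 14 fibroblast markers were also past the fold and higher. This stands against 17.1% of all genes, and the median log2 fold of the 14 markers was 0.80. In KD-1, where Id1 and Id3 were below control, 9 of the 14 were past the fold and lower, against 5.62% of all genes. The median of the 14 markers there was -0.73. Id1 at -0.38 and Id3 at -0.24 in KD-1 lay near the upper end of the range of the fibroblast markers, and Smad6 at 0.16 and Bmp2 at -0.05 lay above all of them. ES cell markers had a median log2 fold of 0.18 under KD-1 and -0.25 under KD-2. The part of the fibroblasts in the values of the 9 genes was not tested.

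**Figure D3:**
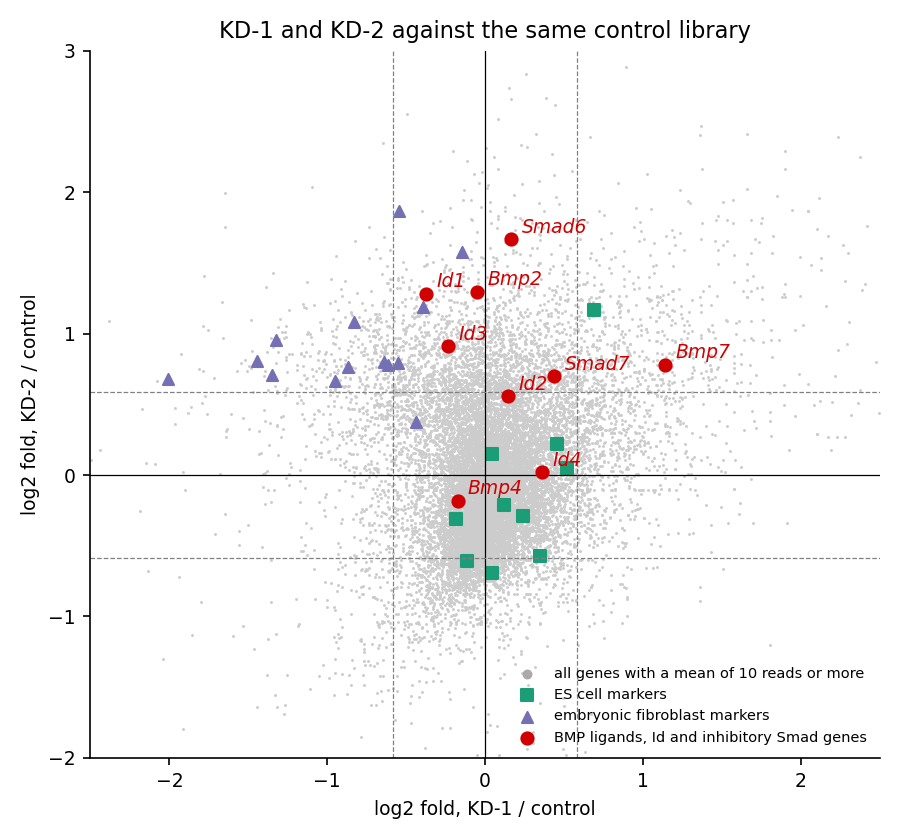
Log2 fold in KD-1 (horizontal) and KD-2 (vertical) against the same control library for the 9 genes (red), the ES cell and fibroblast markers and all 16670 genes compared (grey), of which 61 lie outside the axes; dashed lines mark 1.5-fold. The fibroblast markers lie at the upper left and Id1 and Id3 lie within their range in both directions, while Smad7 and Bmp7 lie at the upper right.

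Compared directly, both knockdown libraries differed from each other for several of the genes. Id1 was at 0.317-fold in KD-1 relative to KD-2 (interval 0.303 to 0.331), Smad6 at 0.352-fold (interval 0.320 to 0.387), Bmp2 at 0.393-fold (interval 0.331 to 0.465) and Id3 at 0.452-fold (interval 0.438 to 0.466). These 4 of the 9 genes were past the fold and lower in KD-1, against 16.1% of all genes, and none was past it and higher, against 13.9%. With upper-quartile scaling the median log2 fold of all genes in this comparison was 0.12, and relative to that median the 4 genes lay between -1.78 and -1.27. Bmp4 was at 1.00-fold (interval 0.942 to 1.07) with upper-quartile scaling, and its log2 fold of 0.01 became -0.10 with the size factors of DESeq2 and -0.16 with library totals, both outside that interval. For Nup153 itself the KD-1 library was at 1.36-fold of KD-2 (interval 1.33 to 1.39).

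With KD-1 and KD-2 as 1 group of 2 NUP153 knockdown libraries, edgeR's quasi-likelihood test called none of the 9 genes at an adjusted p-value under 0.05, against 0.00945% of 21164 genes. The adjusted p-value was 1 for each of the 9 genes. At an unadjusted p-value under 0.05 it called 1 of the 9 genes, Smad6, against 1.25% of all genes, and the Wald test of DESeq2 called none of the 9 at either threshold, against 0.00945% and 0.387% of all genes. The fitted log2 fold of Smad6 was 1.11 with an unadjusted p-value of 0.028, and it rests on KD-2, since KD-1 alone was at 0.16. The replicate spread in this test comes from KD-1 and KD-2 alone, with 1 residual degree of freedom. Nup153 reached a log2 fold of -1.19 with an unadjusted p-value of 0.00855 and an adjusted p-value of 1.

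Among the other BMP ligands, 7 of 11 averaged at least 10 reads. Of these, Bmp15, on 20 reads in control, was past the fold and higher in KD-1, against 8.63% of all genes. Bmp5, Bmp15 and Gdf6 were past it and higher in KD-2, against 17.1%. The counting interval of Bmp15 includes 1 in both knockdowns. The median log2 fold of these ligands was 0.12 under KD-1 and 0.57 under KD-2. Gdf6, the most abundant of them, had 618 reads in control, 628 under KD-1 and 1364 under KD-2, a fold of 0.867 and 2.05. Bmp5 had 101 reads in control, 120 under KD-1 and 247 under KD-2 and was at 1.01-fold under KD-1 and 2.27-fold under KD-2. Both thus resembled Bmp2 in being higher in KD-2 and within 1.5-fold in KD-1. Bmp10, Gdf2 and Gdf7 had 0 reads in control and at most 5 in the knockdowns.

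Of 10 receptors and co-receptors, none was past the fold and higher in KD-1, against 8.63% of all genes. Acvrl1 and Rgma were in KD-2, against 17.1%. Their median log2 fold was 0.13 under KD-1 and 0.01 under KD-2. Bmpr1a, the main type I receptor for BMP2 and BMP4, had 12817 reads in control and was at 0.918-fold under KD-1 and 0.858-fold under KD-2. Bmpr2, the type II receptor, was at 1.11-fold and 1.06-fold. Acvrl1, a type I receptor of endothelial cells, had 60 reads in control, 64 under KD-1 and 136 under KD-2 and was at 2.10-fold in KD-2 (interval 1.54 to 2.90). Hfe2, a co-receptor, was the 1 gene of the list past the fold and lower in KD-2, with 31 reads in control and 16 in KD-2, and Bmpr1b the 1 that was lower in KD-1, at 0.652-fold.

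Of the signal transducers, Smad4 (5164 reads in control) and Smad5 (3967 reads) lay between 0.834-fold and 1.00-fold in both knockdowns. Smad1 was at 1.33-fold under KD-1 and 1.40-fold under KD-2. Smad9, which is itself a target of BMP signals, had 204 reads in control, 233 under KD-1 and 394 under KD-2 and was the 1 of the 4 genes past the fold, at 1.79-fold in KD-2 (interval 1.51 to 2.13). The E proteins, the partners that Id proteins bind, were all within 1.5-fold in both knockdowns with upper-quartile scaling, with Tcf4 at 0.937-fold and 1.47-fold, Tcf12 at 0.850-fold and 1.39-fold and Tcf3 at 1.05-fold and 1.17-fold in KD-1 and KD-2. In KD-2 Tcf4 passed the fold with TMM, the size factors of DESeq2, library totals and the filter of 10 reads (log2 fold 0.59 to 0.71), and Tcf12 with library totals (0.63).

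The extracellular antagonists, secreted proteins that bind BMPs and keep them from receptors, had the largest median difference between the knockdowns among the pathway lists, at a log2 fold of -1.24 in KD-1 relative to KD-2. Fibroblast markers differed more, with a median of -1.68. Of 12 genes 11 averaged at least 10 reads, with a median log2 fold of 0.93 in KD-2. There 9 of the 11 were past the fold and higher, against 17.1% of all genes. In KD-1, Cer1 was higher past the fold, on 6 reads in control and 15 in KD-1 and with a counting interval that includes 1 (0.782 to 6.71). Its interval in KD-2, where Cer1 is among the 9, also includes 1 (0.990 to 8.15). Cer1 averaged at least 10 reads only through the knockdowns. Chrdl1, Fst and Sostdc1 were among those lower in KD-1, where the median was -0.40. Fst, which encodes follistatin and was the most abundant, had 5614 reads in control, 3387 under KD-1 and 8683 under KD-2, a fold of 0.515 and 1.44. Twsg1 was at 0.848-fold and 1.53-fold, and Nbl1 had 1622 reads in control and was at 0.756-fold and 2.20-fold. Sostdc1 had the largest folds of the list, on 12 reads in control, 2 under KD-1 and 34 under KD-2. Markers of fibroblasts differed in the same direction in each library, as given above, and their part was not tested here either.

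Of 9 other targets and feedback genes, 8 averaged at least 10 reads. None was past the fold in KD-1, against 8.63% of all genes that were higher and 5.62% lower. Atoh8, Hey1 and Msx1 were past it and higher in KD-2, against 17.1%. Msx1 averaged at least 10 reads only through KD-2, so its place in that count follows from the filter. The median log2 fold of the list was 0.04 under KD-1 and 0.50 under KD-2. Atoh8, a basic helix-loop-helix gene that responds to BMP, had 242 reads in control, 320 under KD-1 and 775 under KD-2. It was at 1.13-fold in KD-1 (interval 0.952 to 1.34) and 2.97-fold in KD-2 (interval 2.57 to 3.45), values close to those of Smad6. Msx1 had 4 reads in control, 5 under KD-1 and 27 under KD-2, a fold of 5.72 with an interval of 2.18 to 24.6. Smurf2, a ubiquitin ligase for SMAD proteins and the most abundant of the list, was at 0.930-fold and 1.14-fold. Bambi, a decoy receptor and BMP target, had 773 reads in control, 1198 under KD-1 and 922 under KD-2, and was higher in KD-1 (1.32-fold) than in KD-2 (1.11-fold).

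**Figure D4:**
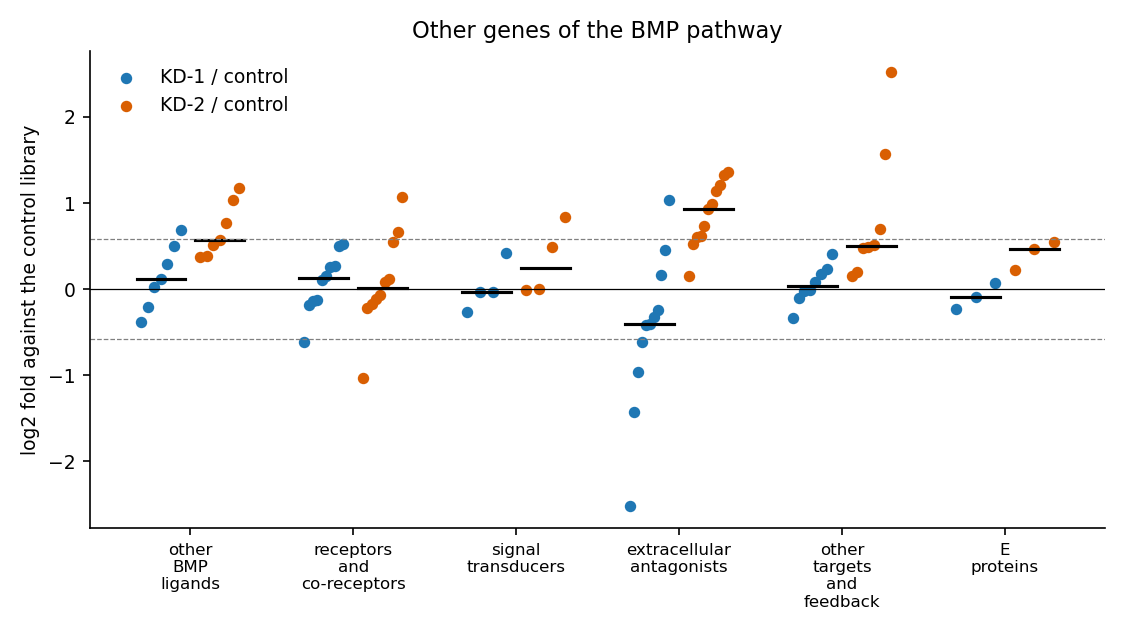
Log2 fold in KD-1 and KD-2 against the control library for the other genes of the pathway averaging at least 10 reads, 1 point per gene, with bars for the median of each list and dashed lines at 1.5-fold. The extracellular antagonists lie mostly above the upper line in KD-2, with a median of 0.93, and mostly below 0 in KD-1, while the receptors have medians near 0 in both.

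Genes with folds most like those of each member were found among 12743 genes averaging at least 100 reads, as the nearest in the plane of the log2 folds in KD-1 and KD-2, which rests on 3 libraries. Nearest to Id1 were Col6a2 (-0.37 under KD-1 and 1.29 under KD-2), Col16a1 (-0.43 and 1.26) and Mrc2 (-0.42 and 1.33). Nearest to Id3 were Pcolce (-0.25 and 0.91), Fam212a and Pogk. The nearest gene to Smad6 was Rpph1 (0.13 and 1.65) at a distance of 0.0425, followed by Hist1h2ah and Tpgs1. Col6a2 lay at 0.00762 from Id1 and Pcolce at 0.0129 from Id3. BC029722 (-0.01 and 1.30) and Cemip were among the nearest to Bmp2. Bmp7 lay in a sparse part of the plane, and its nearest gene was Gpnmb (1.18 and 0.73) at a distance of 0.0684. Id4 and Bmp4 lay in denser parts of the plane, and the nearest genes to them were Rpl27 and Sptlc1, at distances of 0.00289 and 0.00690.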

How the data were processed

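RNA-Seq reads were trimmed with Trim Galore 0.4.1 and mapped with TopHat2 2.1.1 to mm10 (GRCm38), according to the submitters' processing notes, which name HTSeq, while the study's methods name featureCounts for counting. The authors deposited these counts as raw numbers of reads per gene, not normalized. The strand setting is not given in the sources used here. Summary lines for reads not assigned to a gene, which held 23.0% to 25.6% of the reads listed per library, were left out.

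The 9 genes and all lists were chosen with earlier results of these data known. Reads were scaled by upper-quartile normalization in edgeR 4.0.16 (R 4.3.3), a scaling that the study names in its supplementary descriptions. The study also normalized with RUVseq and spike-ins, a step that was not repeated here. Log2 folds used a pseudocount of 0.5 scaled reads, and 16670 genes averaging at least 10 reads were compared. Counting intervals came from scipy 1.17.1. With 1 library per condition no p-value was computed for a single knockdown. Both knockdowns as a group were tested with edgeR's quasi-likelihood test and, as an alternative, DESeq2 1.42.0, with Benjamini-Hochberg adjustment over 21164 genes with a read, after checks on simulated data. Exon lengths were taken from GENCODE M21, which matched 23334 genes by symbol. Pathway genes named in the text are up to 4 per list, by abundance or size of fold, together with genes named to complete a count or a list, chosen after their values were seen. Alternatives were library totals, TMM, the size factors of DESeq2, removal before scaling of genes under a mean of 10 reads, a pseudocount of 5 and a fold above 2. Some genes of the lists are not reported here by name.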

Additional observations from a re-analysis of the deposited data

Results flagged for a closer look

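Id1 and Id3 lay on opposite sides of control in the libraries of both hairpins, with counting intervals that exclude a fold of 1 in each. The log2 fold of Id1 was -0.38 under KD-1 and 1.28 under KD-2, and that of Id3 was -0.24 under KD-1 and 0.91 under KD-2. With 1 library per hairpin the difference was not tested against the spread between cultures. Fibroblast markers had the same signs, with a median log2 fold of -0.73 under KD-1 and 0.80 under KD-2.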

How the results depend on the processing

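With a fold above 2 in place of 1.5, 3 of the 9 genes (Bmp2, Id1 and Smad6) were higher in KD-2, against 5.42% of all genes, in place of 6. The other alternatives left 6 or 7 of the 9 genes past the fold in KD-2, 1 in KD-1 and 4 between the knockdowns. Id2 in KD-2 was the 1 gene that crossed 1.5-fold. The share of all genes past 1.5-fold and higher under them was 15.8% to 23.6% in KD-2 and 7.29% to 8.98% in KD-1. The share lower in KD-1 relative to KD-2 was 15.4% to 21.2%. Of 135 log2 folds recomputed under these alternatives, 26 left the counting interval of the reported value and none of the genes past the fold changed sign. Library totals moved the median of all genes in KD-2 from -0.02 to 0.14. The quasi-likelihood test called 0 of the 9 genes under each normalization and filter, which says nothing of stability, since the adjusted p-value was 1 for each gene. Bmp7 and Bmp2 are limited by depth, with 56 and 174 reads in control. No paired analysis was possible because each condition has 1 library, and for the same reason no library could be left out of a test.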
